A study of Mus musculus with 9 samples.

Results

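The vesicular neurotransmitter transporters, the proteins that fill secretory vesicles with transmitter, were followed through 9 RNA-seq libraries from 3 kinds of purified mouse primary culture. The 7 genes were taken by name from the 24170 genes of the count files: Slc17a6 (VGLUT2), Slc17a7 (VGLUT1), Slc17a8 (VGLUT3), Slc18a1 (VMAT1), Slc18a2 (VMAT2), Slc18a3 (VAChT) and Slc17a9 (VNUT). All 7 were found, and 6 had enough counts to be tested, Slc18a3 being the exception. The cultures were cortical astrocytes from pups at postnatal day 1 to 3, grown for about 21 days; dorsal root ganglion (DRG) neurons from embryos at E13.5, grown for about 2 weeks; and oligodendrocyte progenitor cells (OPC) from cortex at postnatal day 6 to 9, grown for 6 to 7 days. Each had 3 libraries, which the series describes as biological replicate experiments, and poly(A) RNA was sequenced with a stranded kit. No genotype, transgene or drug treatment distinguishes the groups in the labels. Age of the donor and time in culture changed together with cell type, as did tissue of origin for DRG neurons, and these cannot be told apart. In such bulk cultures, fewer cells of a type and less RNA per cell cannot be told apart either.

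Vesicular transporters exchange protons, pumped into the vesicle by the V-ATPase, for cytoplasmic transmitter, or use the electrical gradient which the pump creates. The VGLUT proteins carry glutamate, the VMAT proteins dopamine, noradrenaline, adrenaline, serotonin and histamine, VAChT acetylcholine, and VNUT ATP and other nucleotides. Which of them a neuron makes largely sets the transmitter it can release. Sensory neurons of the DRG are glutamatergic, and VGLUT2 is the form best known there.

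The members lie apart in the genome and are all protein coding (RefSeq, GRCm38.p6, the assembly of mm10). Slc17a6 is at chr7:51621830-51671126 (+) and Slc17a7 at chr7:45163921-45176139 (+). Slc17a8 is at chr10:89574020-89621249 (-), Slc17a9 at chr2:180724576-180742280 (+) and Slc18a1 at chr8:69037708-69089238 (-). Slc18a2 is at chr19:59260878-59296012 (+), where in GENCODE vM21 its exons overlap those of Gm29261 on the opposite strand. The strand setting of the counting is not given in the sources used here, so how reads of this overlap were counted is not known. Slc18a3, a single-exon gene at chr14:32462437-32464850 (-), lies inside Chat, the gene of the enzyme that makes acetylcholine, with no shared exon. Every member had 1 RefSeq transcript in the files, so no reads were set aside as shared between isoforms of a member.

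The 250 bases upstream of the first RefSeq start are shown for the VGLUT genes, since Slc17a6 and Slc17a7 were abundant in the same cultures while Slc17a8 was not. They are given 5′ to 3′ on the gene's strand, and capitals mark these letters on either strand: the GC box GGGCGG, the core TGACG of the cAMP response element, the TATA box TATAAA, and the elements CAGCACC and GGACAG of the RE1 site.
Slc17a6, chr7:51621580-51621829 (+): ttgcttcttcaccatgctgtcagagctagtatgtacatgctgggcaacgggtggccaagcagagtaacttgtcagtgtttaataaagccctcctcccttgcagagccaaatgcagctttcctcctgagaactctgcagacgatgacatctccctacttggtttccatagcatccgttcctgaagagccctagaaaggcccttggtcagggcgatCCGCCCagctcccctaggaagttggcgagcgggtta
Slc17a7, chr7:45163671-45163920 (+): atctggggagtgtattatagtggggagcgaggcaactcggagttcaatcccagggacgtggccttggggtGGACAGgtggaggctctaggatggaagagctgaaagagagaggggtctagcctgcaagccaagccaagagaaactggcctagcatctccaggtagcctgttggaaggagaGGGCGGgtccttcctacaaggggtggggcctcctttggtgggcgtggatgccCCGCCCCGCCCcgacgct
Slc17a8, chr10:89621250-89621499 (-): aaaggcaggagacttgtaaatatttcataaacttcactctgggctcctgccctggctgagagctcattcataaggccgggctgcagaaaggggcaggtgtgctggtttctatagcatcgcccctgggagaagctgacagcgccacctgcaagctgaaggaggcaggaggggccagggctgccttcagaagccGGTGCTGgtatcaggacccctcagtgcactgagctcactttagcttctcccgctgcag
Slc17a7 had 3 GC boxes, of which 2 overlap, Slc17a6 had 1 and Slc17a8 had 0. At least 1 such box was in 32.7% of 32851 windows of this length in the RefSeq table. GGACAG was in Slc17a7 (18.7% of windows), CAGCACC in Slc17a8 (5.73% of windows), and neither TATAAA (12.4% of windows) nor TGACG (17.8% of windows) in any of these 3. The CANNTG motif, which is not in capitals and can overlap the others, was present 1 time in Slc17a6, 1 time in Slc17a7 and 2 times in Slc17a8, and in 66.2% of windows. The GC content was 53.2% in Slc17a6, 61.2% in Slc17a7 and 57.2% in Slc17a8, beside a median of 52.4%. These are letter matches, not measured sites. A further RefSeq start of Slc17a6, not shown, had 41.2% GC, 0 GC boxes and 1 TGACG. A further start of Slc17a8 had 44.8% GC and 0 GC boxes. Bases just past the first start were found in the GENCODE transcript of Slc17a8, but not in those of Slc17a6 and Slc17a7. Which start the cultures used was not tested.

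The coding sequences of the VGLUT genes are close relatives, so the longest stretch that each pair shares is shown, because it bears on whether a read can be told apart. Identity of the aligned coding bases (GENCODE vM21 transcripts) was 72.5% for Slc17a6 and Slc17a7, 71.7% for Slc17a6 and Slc17a8, 71.5% for Slc17a7 and Slc17a8, and 68.4% for Slc18a1 and Slc18a2. Capitals mark the shared run, with 20 bases of each gene on either side, and bases are counted from the start codon.
Slc17a6, coding bases 248 to 308: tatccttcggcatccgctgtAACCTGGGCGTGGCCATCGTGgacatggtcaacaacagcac
Slc17a7, coding bases 224 to 284: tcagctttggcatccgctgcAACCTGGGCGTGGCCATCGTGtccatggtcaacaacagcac
Slc17a6, coding bases 204 to 268: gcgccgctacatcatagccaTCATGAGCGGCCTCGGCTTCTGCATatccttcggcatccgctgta
Slc17a8, coding bases 258 to 322: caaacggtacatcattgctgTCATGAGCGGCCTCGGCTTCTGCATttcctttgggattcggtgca
Slc18a1, coding bases 941 to 995: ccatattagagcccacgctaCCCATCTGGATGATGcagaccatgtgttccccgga
Slc18a2, coding bases 935 to 989: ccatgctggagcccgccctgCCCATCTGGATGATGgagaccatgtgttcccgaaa
These runs are 21, 25 and 15 bases long, and that of Slc17a7 and Slc17a8 is 17. No other pair of members shared more than 16 bases in a row.

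Assigned reads per library ran from 30710093 to 53594210. Levels are edgeR's CPM, that is counts relative to the library size after TMM scaling, as mean ± SD of 3 libraries, and comparisons between genes are per kilobase of transcript. Tests are the quasi-likelihood test of edgeR with Benjamini-Hochberg adjustment over 14848 genes and a threshold of 0.05. Each SE is the log2 fold change divided by the root of the F statistic. Sensory neuron markers summed to 6712 to 6887 CPM in DRG neurons, with 12 of 14 at 1 CPM or more. Astrocytes had 569 to 1488 CPM of this list, nearly all Ntrk2 (1476, 552 and 717 CPM), and OPC 330 to 546. Prph was listed at 0 in all 9 libraries; it has 3 accessions, and reads that these share were not counted. Astrocyte markers summed to 6431 to 8201 CPM in astrocytes and OPC markers to 5101 to 6860 in OPC. Each glial type also had markers of the other. OPC markers summed to 341, 1203 and 1311 CPM in Astrocytes replicates 1 to 3. Astrocyte markers summed to 828, 1149 and 1077 CPM in OPC replicates 1 to 3. The part of 1 glial type in the levels of the other was not tested. Schwann and satellite glia markers summed to 2924, 7961 and 6812 CPM in DRG replicates 1 to 3, nearly all from 1 receptor gene that sensory neurons make too. The part of ganglion glia in the DRG levels was not tested. Some libraries stood apart: microglia markers were 2568 CPM in Astrocytes replicate 1 against 436 and 397, Gpr17 of committed precursors had 35148 counts in OPC replicate 1 against 464 and 409, and Scn10a, a channel of pain-sensing neurons, had 565 counts in DRG replicate 1 against 5245 and 5732.

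The 2 major glutamate transporters separated DRG neurons from both glial cultures by about 3 orders of magnitude. Slc17a6 (VGLUT2) reached 531, 999 and 724 CPM in DRG replicates 1 to 3, from 15698, 47455 and 28028 counts. It had 0, 25 and 4 counts in astrocytes (0, 0.594 and 0.111 CPM) and 1, 29 and 9 in OPC (0.0224, 0.590 and 0.217 CPM). No glial library came above 0.0790% of the DRG mean, and the astrocyte and OPC libraries overlapped. The DRG mean of 751 ± 235 CPM was 3201-fold that of astrocytes (log2 11.67, SE 1.22, adjusted p = 5.03e-05) and 2718-fold that of OPC (log2 11.36, SE 1.19, adjusted p = 5.53e-05). Because the glial counts are so few, the size of the fold rests on single glial libraries: the log2 value against astrocytes was 13.90 without Astrocytes replicate 2 and 11.00 without replicate 1, and against OPC it was 12.60 without OPC replicate 2.

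Slc17a7 (VGLUT1), the form of most cortical excitatory neurons, was also abundant in DRG neurons, at 289, 293 and 204 CPM. Astrocytes had 4, 17 and 5 counts (0.0752, 0.404 and 0.138 CPM) and OPC 5, 17 and 14 (0.112, 0.346 and 0.337 CPM). The DRG libraries were far above all 6 glial ones, which overlapped each other. Its DRG mean of 262 ± 50.1 CPM was 1275-fold the astrocyte mean (log2 10.32, SE 0.63, adjusted p = 3.08e-06), and 990-fold the OPC mean (log2 9.93, SE 0.61, adjusted p = 4.41e-06). The first log2 value became 11.28 when Astrocytes replicate 2 was left out. Between OPC and astrocytes neither Slc17a6 (log2 0.30, adjusted p = 0.837) nor Slc17a7 (log2 0.39, adjusted p = 0.612) passed.

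Beside the traces of Slc17a6, glia had traces of a sensory neuron gene. Avil, an actin-binding protein of sensory neurons, had 58, 171 and 32 counts in Astrocytes replicates 1 to 3 and 40, 145 and 72 in those of OPC, while DRG neurons had 51079, 126962 and 86179. For each 1000 counts of Avil there were 307, 374 and 325 counts of Slc17a6 in DRG neurons. The same ratio was 0, 146 and 125 in astrocytes and 25.0, 200 and 125 in OPC. The libraries with most Slc17a6 counts in each glial group, both replicate 2, thus also had most Avil counts. The other astrocyte libraries did not follow this order: replicate 1, with 58 Avil counts, had 0 of Slc17a6, and replicate 3, with 32, had 4. The part of other cells or of reads from other libraries in these traces was not tested.

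Slc17a8 (VGLUT3), the form of scattered neurons that often use another transmitter too, had the opposite distribution. Astrocytes had 338, 191 and 349 counts (6.36, 4.54 and 9.65 CPM), DRG neurons 17, 11 and 4 (0.575, 0.232 and 0.103 CPM), and OPC 4, 7 and 2 (0.0894, 0.142 and 0.0481 CPM). All 3 astrocyte libraries lay above all others, and the DRG and OPC libraries overlapped. The DRG mean was 22.6-fold lower than that of astrocytes (log2 −4.52, SE 0.66, adjusted p = 0.000353). That of OPC was 73.4-fold lower (log2 −6.13, SE 0.72, adjusted p = 0.000183). The DRG and OPC means of 0.303 ± 0.244 and 0.0933 ± 0.0473 CPM differed with log2 1.61 (SE 0.69, adjusted p = 0.0692), which became 0.82 without DRG replicate 1 and passed (log2 2.03, adjusted p = 0.0276) without DRG replicate 3.

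Markers of other cells were present in the astrocyte cultures. Cortical interneuron markers (3 of 8 at 1 CPM or more) summed to 45.1 to 63.8 CPM in astrocytes, more than in DRG neurons (3.12 to 40.6) or OPC (6.48 to 10.9). Of the 3 interneuron genes tested, 3 were lower in OPC and 2 in DRG neurons than in astrocytes. Over all genes, 51.8% and 60.2% were called in these comparisons. Pan-neuronal markers (4 of 8) summed to 143 to 174 CPM in astrocytes, less than in OPC (263 to 287) or DRG neurons (12478 to 13973). Cortical excitatory markers (4 of 8) summed to 27.0 to 74.2 CPM in astrocytes, 30.7 to 47.2 in DRG neurons and 6.17 to 13.2 in OPC. Single neuronal genes at or near 0 in astrocytes were Snap25, with 0, 19 and 1 counts, Elavl4, with 1, 0 and 0, Neurod6 and Fev. The part of neurons in the Slc17a8 level was not tested. Microglia markers were highest in replicate 1 and Slc17a8 in replicate 3, and the part of microglia in the Slc17a8 level was not tested. Fibroblast and mural cell markers summed to 1153, 8256 and 9747 CPM in Astrocytes replicates 1 to 3, and their part in the Slc17a8 level was not tested. Per kilobase, Slc17a8 in astrocytes was at 1.54 ± 0.581 CPM, a modest level that exceeded 33.9% of 14613 genes with a known length. That share may be too high, since genes with several transcripts are under-counted.

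**Figure D1:**
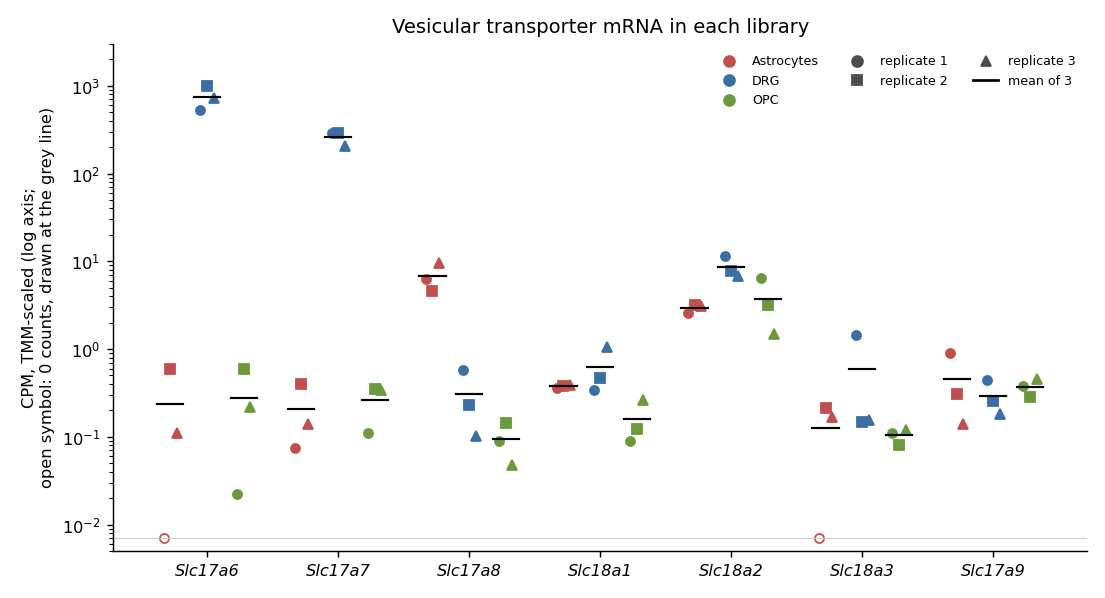
Each point is the level of a transporter gene in 1 library, in TMM-scaled CPM on a log axis, with colour for cell type, shape for replicate, a line for the mean of 3 and an open symbol at the grey line for 0 counts. The DRG libraries of Slc17a6 and Slc17a7 sit between 204 and 999 CPM, all glial ones under 1 CPM, and Slc17a8 is highest in astrocytes at 4.54 to 9.65 CPM.

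On a per-length scale the make-up of VGLUT mRNA differed between the cultures. In DRG neurons Slc17a6 made up 66.1 ± 8.46% of the summed CPM per kilobase and Slc17a7 33.9 ± 8.43%. The Slc17a6 share was 56.4% at its lowest and 71.4% at its highest. The Slc17a6 level per kilobase was 1.29, 2.40 and 2.49 times that of Slc17a7 in DRG replicates 1 to 3, so the order of the pair was the same in each library. In astrocytes Slc17a8 made up 91.1 ± 11.1%, from 78.3 to 98.2%. OPC had so few VGLUT counts that the shares there (Slc17a7 55.1%, Slc17a6 28.8%, Slc17a8 16.1%) describe a sum of 0.179 ± 0.115 CPM per kilobase. That sum was 1.66 ± 0.504 in astrocytes and 272 ± 61.5 in DRG neurons. Slc17a6 at 182 ± 56.8 CPM per kilobase and Slc17a7 at 90.0 ± 17.2 ranked 432 and 937 among the 14613 genes in DRG neurons. These ranks may be too high, since genes with several transcripts are under-counted and the members are not among those.

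**Figure D2:**
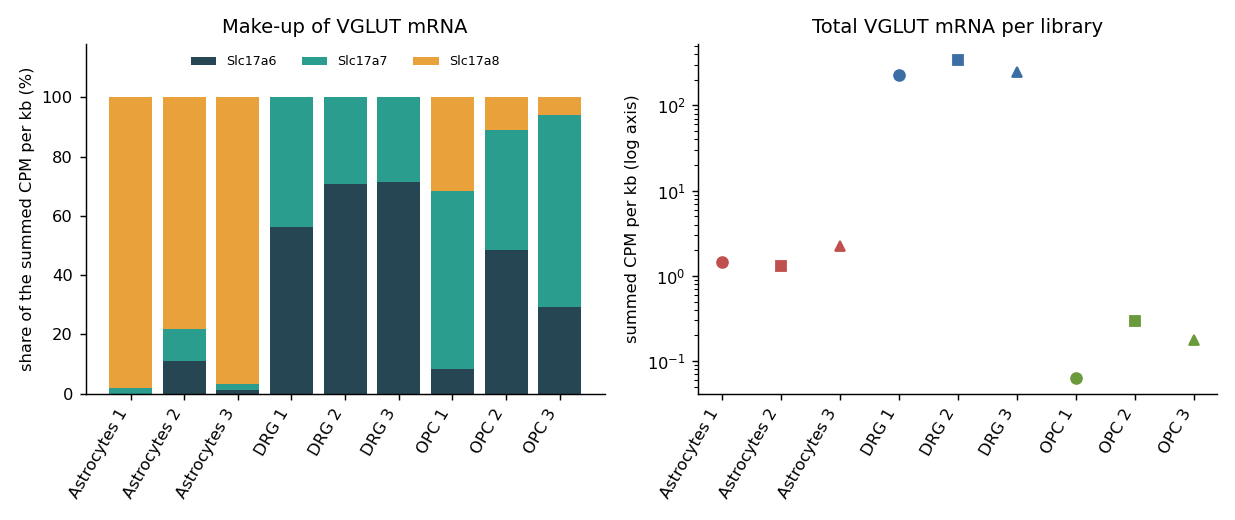
Left, the stacked bars give the share of Slc17a6, Slc17a7 and Slc17a8 in the summed CPM per kilobase of each library, in percent. Right, the points give that sum on a log axis, with means of 272 (DRG neurons), 1.66 (astrocytes) and 0.179 (OPC).

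Slc18a2 (VMAT2), the monoamine transporter of the brain and of sympathetic neurons, was the one member above 1 CPM in all 9 libraries. Astrocyte libraries had 2.60, 3.18 and 3.12 CPM, DRG libraries 11.4, 7.79 and 6.71, and OPC libraries 6.51, 3.20 and 1.47. All DRG libraries were above all glial ones, narrowly so for OPC replicate 1, and OPC spread around the astrocyte values. The DRG mean of 8.62 ± 2.44 CPM was 2.91-fold that of astrocytes (log2 1.54, SE 0.50, adjusted p = 0.0241). This call ended when any 1 of Astrocytes replicates 1, 2 and 3 was left out (adjusted p = 0.0569, 0.0524 and 0.0606), or DRG replicate 1 (adjusted p = 0.0725). Against OPC the ratio of 2.32 did not pass (log2 1.21, SE 0.50, adjusted p = 0.0599). It passed with the replicate number as a block (adjusted p = 0.0390), with DESeq2 size factors (adjusted p = 0.0310) and in the Wald test of DESeq2 (adjusted p = 0.0080). It also passed without OPC replicate 1 (log2 1.88, adjusted p = 0.00767), and without both Astrocytes replicate 1 and OPC replicate 3 (log2 1.09, adjusted p = 0.0470). OPC and astrocytes did not differ detectably (log2 0.33, SE 0.49, adjusted p = 0.603).

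The spread of Slc18a2 among OPC libraries was wider than in the other cultures, from 291 counts in replicate 1 to 61 in replicate 3. Replicate 1 was also the library with 35148 Gpr17 counts. Replicate 3 was lower than replicates 1 and 2 by 1.61 on the log2 scale. What moved Slc18a2 among these libraries was not tested.

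Markers of the cells best known for VMAT2 were low in DRG cultures, but not at 0. Sympathetic neuron markers summed to 0.0677 to 0.589 CPM, with none of 6 at 1 CPM, and Fev of serotonergic neurons had 1, 6 and 4 counts. Mast cell markers summed to 0.779 to 1.56 CPM in DRG libraries, 0.0188 to 0.0950 in astrocytes and 0.529 to 1.14 in OPC, with 4 of 7 at 0 in DRG libraries. Of 2 mast cell genes tested, 1 was higher and 0 lower in DRG neurons than in astrocytes. Against OPC 1 was higher and 1 lower. Over all genes, 60.2% and 59.5% were called in these comparisons. Cpa3, a mast cell protease, gave most of the DRG sum. It had 40, 36 and 35 counts in DRG libraries, beside 336, 370 and 260 of Slc18a2. The part of mast cells in the DRG level of Slc18a2 was not tested.

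Slc18a1 (VMAT1), the form of endocrine cells, was low everywhere. Astrocytes had 19, 16 and 14 counts (0.357, 0.380 and 0.387 CPM), DRG neurons 10, 22 and 41 (0.338, 0.463 and 1.06 CPM), and OPC 4, 6 and 11 (0.0894, 0.122 and 0.265 CPM). All OPC libraries were below all others, while DRG neurons and astrocytes overlapped. DRG neurons had 3.91-fold the OPC mean (log2 1.96, SE 0.57, adjusted p = 0.0153). Leaving out 1 library ended the call for DRG replicate 3 (log2 1.34, adjusted p = 0.0805), OPC replicate 1 (log2 1.68, adjusted p = 0.0566) or OPC replicate 2 (log2 1.80, adjusted p = 0.0641). Without OPC replicate 3 the log2 value was 2.76. DRG neurons against astrocytes (log2 0.73, adjusted p = 0.270) did not pass, nor did OPC against astrocytes (log2 −1.23, adjusted p = 0.102). The latter passed without OPC replicate 3 (log2 −1.94, adjusted p = 0.0393) and with the replicate number as a block (log2 −1.39, adjusted p = 0.0477). Per kilobase Slc18a2 made up 86.6% of VMAT mRNA in astrocytes, and in DRG neurons and OPC 91.2% and 92.0%.

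Slc18a3 (VAChT) did not reach the filter of the test. Astrocyte libraries had 0, 9 and 6 counts, DRG libraries 43, 7 and 6, and OPC libraries 5, 4 and 5. DRG replicate 1, at 1.46 CPM, stood apart from replicates 2 and 3 at 0.147 and 0.155 CPM, which lay within the astrocyte range of 0 to 0.214 CPM. In a fit without the filter, no comparison passed (DRG vs astrocytes log2 2.18, adjusted p = 0.138; DRG vs OPC log2 2.40, adjusted p = 0.109). DRG replicate 1 was also high in Slc5a7, the choline uptake transporter, with 822 counts against 52 and 48, and in Pvalb, with 1184 against 126 and 142. Pvalb is also among the listed cortical interneuron markers, which summed to 40.6, 3.12 and 5.19 CPM in DRG replicates 1 to 3. Motor neuron markers (1 of 6 at 1 CPM or more) summed to 43.4, 85.1 and 116 CPM there, lowest in replicate 1. Whether Slc18a3, Slc5a7 and Pvalb came from the same cells was not tested.

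Slc17a9 (VNUT), which loads ATP into vesicles and lysosomes, did not differ detectably between any cultures. Astrocyte libraries had 0.903, 0.309 and 0.138 CPM, DRG libraries 0.440, 0.253 and 0.181, and OPC libraries 0.380, 0.285 and 0.457, so that all 3 groups overlapped. The log2 difference was −0.67 (SE 0.67, adjusted p = 0.408) for DRG neurons against astrocytes, −0.38 (SE 0.67, adjusted p = 0.648) against OPC and −0.29 (SE 0.65, adjusted p = 0.729) for OPC against astrocytes. The first was 0.33 and the last 0.72 without Astrocytes replicate 1, the library with 48 counts, against 13 and 5, and with the most microglia markers. The part of microglia in that count was not tested.

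Counted together, 4 of the 6 tested members differed between DRG neurons and astrocytes, 3 higher and 1 lower in DRG neurons, where 60.2% of all tested genes differed (27.4% higher, 32.8% lower). Against OPC 3 of 6 differed, all higher in DRG neurons, beside 59.5% of all genes (28.4% higher, 31.1% lower). OPC and astrocytes differed in 1 of 6, Slc17a8, lower in OPC, beside 51.8% of all genes (26.3% higher, 25.5% lower). Differences were thus common among all genes, and how often members differed is not a result about them.

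**Figure D3:**
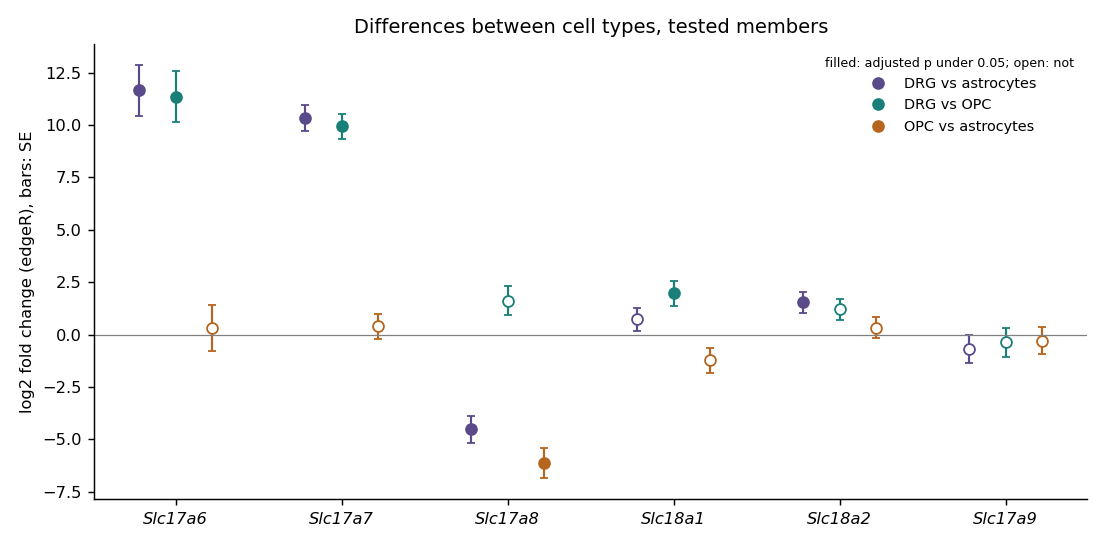
The points are log2 fold changes of the 6 tested members in the 3 comparisons, with SE bars, filled where the adjusted p was under 0.05. Slc17a6 and Slc17a7 lie near 10 to 12 for DRG neurons against either glial type, and Slc17a8 at −4.52 and −6.13 against astrocytes.

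The genes most like each member over the 9 libraries are given as a description, by Pearson's r of log2 CPM. The libraries fall into 3 cell types, so a high r mainly says that a gene separates the same types. Slc17a6 was closest to Ptgir (0.997) and Ndrg4 (0.997), and Slc17a7 to Golga7b (0.999), Kcnh6 (0.998) and Lhfpl5 (0.997). The pair had r = 0.994 with each other. Slc17a8 was closest to Gabrb1 (0.992), a GABA receptor subunit, Cyp7b1 (0.990) and Trpm1 (0.988). Slc18a2 was closest to the sodium leak channel gene Nalcn (0.988), Sos1 (0.979) and Rufy2 (0.978), and had r = 0.757 with Slc17a7 and 0.733 with Slc17a6. Slc18a1 was closest to Plekhg6 (0.955), Nmt1 (0.950) and Cap1 (0.948), and Slc17a9 to Pcdhb13 (0.914), 2610528A11Rik (0.882) and Acyp1 (0.854).

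Of the listed genes that make, use or carry glutamate and glutamine, more were higher than lower in DRG neurons. Of 8 listed, 7 were tested, and 4 were higher and 2 lower in DRG neurons against astrocytes, with a median log2 of 1.36 beside −0.13 over all genes. Against OPC the counts were also 4 and 2 (median 0.52 beside −0.08), and 3 were higher and 1 lower in OPC against astrocytes. The share called was 85.7% against each glial type, beside 60.2% and 59.5% of all genes. In OPC against astrocytes it was 57.1%, beside 51.8%. The transaminase genes Got1 (log2 2.30, adjusted p = 7.91e-05) and Got2 (log2 1.71, adjusted p = 3.25e-05), and the glutamine transporter Slc38a2 (log2 1.36, adjusted p = 0.00126), were also higher than in astrocytes. Slc38a1, another glutamine transporter of the list, was lower (log2 −1.37, adjusted p = 0.00560). Glul, the glutamine synthetase of astrocytes, was at 725 ± 181 CPM there, and DRG neurons had 112 ± 24.2 (log2 −2.70, adjusted p = 3.67e-05).

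Enzymes of monoamine synthesis mostly had few counts in the 3 cultures, Hdc in astrocytes apart. Th, the first enzyme of dopamine synthesis, had 21, 11 and 20 counts in the DRG libraries, and the glial ones had 0, 1 and 1 (astrocytes) and 0, 0 and 1 (OPC), so it was not tested. Dbh, which makes noradrenaline, had 3, 1 and 5 counts in DRG neurons and 0 in all glia, at least 3.68-fold higher than the floor of 3 counts over the astrocyte group. Ddc, with 2 accessions whose shared reads were not counted, was listed at 0 in all libraries. Tph2, of serotonin synthesis, had means of 1.15 ± 0.549 CPM (DRG neurons), 0.915 ± 0.567 (astrocytes) and 0.0697 ± 0.0806 (OPC). The OPC level passed as lower than that of astrocytes (log2 −3.61, adjusted p = 0.00577; −5.11 without OPC replicate 2) and than that of DRG neurons, where DRG vs OPC gave log2 3.94 (adjusted p = 0.00290, and 5.44 without OPC replicate 2). Hdc, which makes histamine, had 1054, 61 and 119 counts in astrocytes, and its difference from DRG neurons (log2 −4.44, adjusted p = 0.00479) was −2.66 without Astrocytes replicate 1, the microglia-rich library.

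Of the 17 listed monoamine genes 10 were tested. In DRG neurons 4 were higher and 2 lower than in astrocytes (median log2 0.52), and 6 were higher and 1 lower than in OPC (median 1.00). So 6 and 7 of 10 were called, beside 60.2% and 59.5% of all genes. The 4 are cofactor genes: Gch1, Pts, Spr and Qdpr make or recycle tetrahydrobiopterin. Pts and Spr each lost the call against astrocytes in 6 of 18 alternatives: library size alone (adjusted p = 0.112 and 0.110), and without any 1 of the 3 Astrocytes libraries or DRG replicates 2 and 3 (adjusted p from 0.0506 to 0.0945). Gch1 (log2 1.47, adjusted p = 0.0187) lost its call without Astrocytes replicate 3 (adjusted p = 0.0691) or DRG replicate 2 (adjusted p = 0.0818). Qdpr was at 258 ± 108 CPM in DRG neurons and 85.4 ± 19.8 in astrocytes (log2 1.59, adjusted p = 0.00286). OPC had 1 gene higher and 4 lower than astrocytes (median −0.39 beside 0.09 over all genes), a share of 50.0% beside 51.8% of all genes. Without Astrocytes replicate 1 and OPC replicate 3 the counts were 0 higher and 4 lower.

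Most acetylcholine genes other than the synthetic enzyme were higher in DRG neurons. Chat, that enzyme, had at most 1 count in any library. Of 9 listed genes 8 were tested, and 6 were higher and 0 lower than in astrocytes (median log2 2.89, the same with Slc5a7 at its bound), and 7 were higher and 0 lower than in OPC (median 2.57). These are 75.0% and 87.5% of those tested, beside 60.2% and 59.5% of all genes. Slc5a7 was at 0 counts in all astrocytes and at 27.8, 1.09 and 1.24 CPM in DRG replicates 1 to 3. The DRG mean, which replicate 1 carries, was at least 440-fold higher than the floor of 3 counts over the group (adjusted p = 0.00412). Without that library its log2 value against OPC went from 5.30 (adjusted p = 0.0180) to 2.20 (adjusted p = 0.0307), and the call ended with the replicate number as a block (log2 3.95, adjusted p = 0.0518) and without OPC replicate 1 (adjusted p = 0.0605) or replicate 3 (adjusted p = 0.0610). Ache, the esterase, was at 6.23 ± 2.59 CPM in DRG neurons, beside 0.0247 ± 0.0281 for astrocytes (log2 7.90, adjusted p = 0.000174; 8.87 without Astrocytes replicate 3). Its membrane anchor Prima1 was also higher (log2 5.37, adjusted p = 4.39e-05), as was Bche (log2 3.31, adjusted p = 0.00458). The choline transporter Slc44a1, the most abundant of the list, was at 95.4 ± 50.3 CPM in DRG neurons and 59.8 ± 0.731 in astrocytes (log2 0.67, adjusted p = 0.171), and passed without DRG replicate 1 (log2 1.05, adjusted p = 0.0104).

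**Figure D4:**
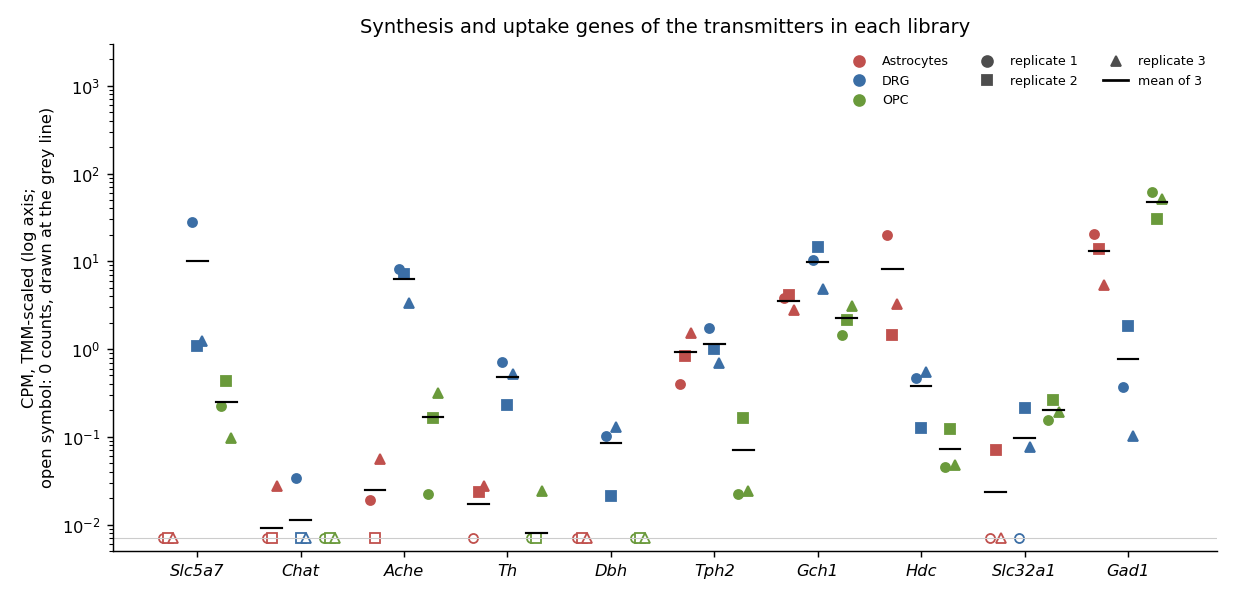
Each point is the level of a gene of transmitter synthesis, uptake or breakdown in 1 library, in TMM-scaled CPM on a log axis, with open symbols for 0 counts. DRG replicate 1 is the high point of Slc5a7, Chat is at or near 0 throughout, and Gad1 is lowest in DRG neurons.

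Most inhibitory transmitter genes, the counterpart of the VGLUT system, were lower in DRG neurons. The vesicular inhibitory amino acid transporter Slc32a1 was not tested, with means of 0.0237 CPM (astrocytes), 0.0960 (DRG neurons) and 0.205 (OPC). Of 7 listed genes 5 were tested, and 4 were lower and 0 higher in DRG neurons against astrocytes (median log2 −4.06) and against OPC (median −5.91). That is 80.0% of those tested in each comparison, beside 60.2% and 59.5% of all genes. Gad1, which makes GABA, was at 0.769 ± 0.930, 13.2 ± 7.53 and 47.7 ± 16.0 CPM in DRG neurons, astrocytes and OPC (DRG vs astrocytes log2 −4.06, adjusted p = 0.00364; −5.82 without DRG replicate 2). Slc6a11 (log2 −5.07, adjusted p = 0.000393) and the glycine transporter Slc6a9 (log2 −1.08, adjusted p = 0.00837) were lower as well. In OPC against astrocytes 2 were higher and 0 lower (40.0% called, beside 51.8% of all genes). The count was 1 when any of Astrocytes replicate 2 or 3 or OPC replicate 1 or 3 was left out.

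Among the 6 other SLC17 and SLC18 genes, 2 were tested. Slc18b1, a vesicular polyamine transporter, fell in steps from astrocytes (50.4 ± 3.09 CPM) to OPC (23.6 ± 3.51) to DRG neurons (7.05 ± 0.360). All 3 differences passed, with log2 −2.84 for DRG vs astrocytes (adjusted p = 5.79e-06), −1.74 for DRG vs OPC (adjusted p = 7.28e-05) and −1.10 for OPC vs astrocytes (adjusted p = 0.00129).

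The proton pump on which all members depend was higher in DRG neurons for most subunits. Of 25 listed V-ATPase genes 21 were tested, and 16 were higher and 3 lower than in astrocytes (median log2 1.21), and 12 higher and 2 lower than in OPC (median 0.87). With libraries scaled by size alone these were 13 and 3, and 10 and 3. With TMM scaling 90.5% and 66.7% of the tested subunits were called, beside 60.2% and 59.5% of all genes. Atp6v1g2, the neuronal G subunit, had 204 ± 32.5 CPM in DRG neurons, well above astrocytes (8.59 ± 1.34) and OPC (26.7 ± 7.17; DRG vs astrocytes log2 4.57, adjusted p = 2.59e-06). Atp6v1b2, the most abundant subunit gene, was at 1122 ± 294 CPM against 238 ± 15.7 in astrocytes (log2 2.24, adjusted p = 6.42e-05). Atp6v0a1, the a subunit of synaptic vesicles, was higher too (log2 2.77, adjusted p = 7.90e-05), but with 4 accessions only its isoform-specific reads were counted. Atp6v0e (log2 −2.40, adjusted p = 4.54e-05) and Tcirg1, the a subunit of osteoclasts and lysosomes (log2 −2.61, adjusted p = 0.000972, 3 accessions), were lower. In OPC against astrocytes 5 were higher and 2 lower (33.3% called, beside 51.8% of all genes). Without Astrocytes replicate 1 and OPC replicate 3 these were 2 and 3.

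**Figure D5:**
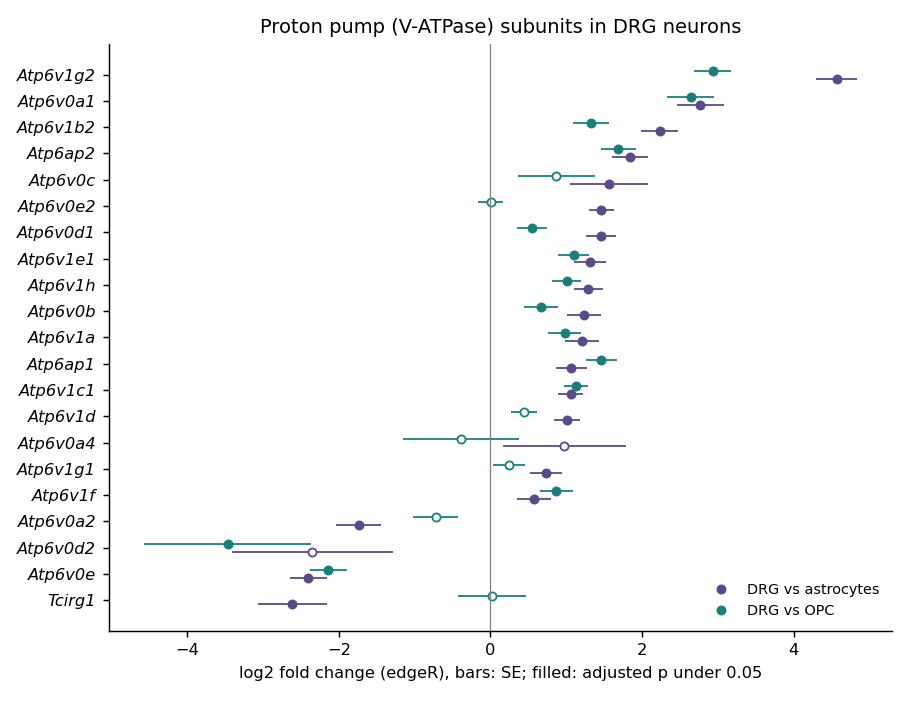
The points are log2 fold changes of the 21 tested V-ATPase genes for DRG neurons against astrocytes and OPC, with SE bars, filled where the adjusted p was under 0.05. Atp6v1g2 is highest against both, and 3 genes pass with lower levels against astrocytes and 2 against OPC.

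Other vesicle membrane genes were tested for 8 of 9, and 6 were higher and 1 lower in DRG neurons than in astrocytes (median log2 2.55). This is a share of 87.5%, beside 60.2% of all genes. Against OPC 4 were higher and 0 lower (median 1.5), a share of 50.0% beside 59.5% of all genes. Without Astrocytes replicate 1 it was 7 and 0 of 9 tested. Sv2c, a vesicle glycoprotein, had 593 ± 202 CPM in DRG neurons, with glial means of 0.922 ± 0.818 (astrocytes) and 10.5 ± 8.20 (OPC; log2 9.34, adjusted p = 8.00e-05 against astrocytes, 10.32 without Astrocytes replicate 2). Its relative Sv2b was at 11.0 ± 2.05 CPM in DRG neurons and under 0.1 in both glial means (log2 8.36, adjusted p = 1.55e-05 against astrocytes). Sv2a (log2 2.86, adjusted p = 0.000365) and the chloride and proton exchanger Clcn5 (log2 2.90, adjusted p = 0.00216; 3.76 without Astrocytes replicate 2) were higher than in astrocytes as well. In OPC against astrocytes 4 were higher and 1 lower (62.5% called, beside 51.8% of all genes), or 2 and 1 without Astrocytes replicate 3.

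Genes of ATP release and breakdown, the setting of VNUT, moved both ways. Of 11 listed 9 were tested, and 4 were higher and 3 lower in DRG neurons against each glial type, with medians of −0.35 against astrocytes and 0.45 against OPC. That is 77.8% of those tested in each comparison, beside 60.2% and 59.5% of all genes. The pannexin channel genes Panx2 (62.6 ± 12.8 CPM in DRG neurons, log2 5.45, adjusted p = 2.75e-05) and Panx1 (133 ± 38.6 CPM, log2 4.41, adjusted p = 1.78e-05) were higher than in astrocytes. Panx1 was not called against OPC (97.6 ± 7.87 CPM, log2 0.45, adjusted p = 0.266), except without both Astrocytes replicate 1 and OPC replicate 3 (adjusted p = 0.0268). The ecto-nucleotidase Entpd3 was higher in DRG neurons (log2 7.54, adjusted p = 1.90e-06) and Entpd1, of microglia and vessels, lower (log2 −2.94, adjusted p = 0.000270). Lrrc8a, a volume-regulated channel subunit and the most abundant of the list, was at 122 ± 13.1 CPM in DRG neurons and 67.8 ± 7.14 in astrocytes (log2 0.84, adjusted p = 0.00355).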

How the data were processed

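The authors deposited raw read counts per RefSeq transcript for 9 libraries; per the submitters' processing notes, TopHat2, HTSeq and mm10 were used, with versions, counting mode and strand setting not given in the sources used here. RefSeq (GRCm38.p6) gave the gene of 33315 of 33787 accessions and GENCODE vM21 that of 193, 279 stayed unnamed, and counts were summed per gene. Unassigned reads were left out; ambiguous reads were 22.0 to 24.7% of each library, so genes with several transcripts are under-counted. edgeR 4.0.16 (R 4.3.3) was fitted to all 9 libraries with TMM and filterByExpr (minimum count 10), with 6 residual degrees of freedom, and tested on simulated data. CPM used TMM-scaled sizes; correlations used log2 CPM with prior count 2. Alternatives included DESeq2 1.42.0. Floors are 3 counts and cover counting error only. Named were all members, Slc32a1, Th, Ddc, Dbh, Tph2, Chat and Slc5a7, each list's most abundant gene and up to 4 of its largest called differences between DRG neurons and astrocytes, and the 3 genes most like each member, less some that are not reported here. Pts, Spr, Slc38a1 and the marker genes were named after their values were seen. The members and lists were chosen with earlier results of these data known.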

Additional observations from a re-analysis of the deposited data

How the results depend on the processing

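Each member was tested again under 17 or 18 alternatives of scaling, filter, tool, fit, accession and left-out library, and 13 of 18 combinations of member and comparison kept their side of the threshold in all, called ones with their direction. The number of members called in DRG neurons against OPC was 3, and 5 with the size factors of DESeq2 in edgeR as well as in its Wald test, where Slc17a8 (adjusted p = 0.0468 and 0.0228) and Slc18a2 (adjusted p = 0.0310 and 0.0080) passed. In OPC against astrocytes it was 1, and 2 with the replicate block. Leaving out 1 library gave 3 to 4, 2 to 3 and 1 to 2 members in the 3 comparisons. The replicate number as a block gave 4 members in DRG neurons against astrocytes and 4 against OPC (Slc18a2 log2 1.33, adjusted p = 0.0390). Deviations of same-numbered libraries correlated with r from −0.04 to 0.13 in 9 pairs, over 0.1 in 1. The number was not taken as a pairing. However, a library's best match among the 3 of another cell type had its number in 11 of 18 cases. Whether the numbers mark a shared preparation was not tested. Library size alone shifted the median of all genes in DRG neurons against astrocytes from −0.13 to −0.39, and in DRG neurons against OPC from −0.08 to −0.23 (0.09 with DESeq2 size factors), and moved 1 of 21 member levels beyond its SD. Among the lists, the DESeq2 Wald test called 7 of 8 vesicle membrane genes (4) and both SLC17 and SLC18 genes (1) against OPC; in OPC against astrocytes the inhibitory list fell to 1 call (2) with DESeq2 size factors, monoamine genes to 3 (5) with the stricter filter or without OPC replicate 1, vesicle membrane genes to 3 (5) with library size alone or only the libraries compared, and acetylcholine genes rose to 5 (3) without DRG replicate 1. The shortest transcript as length gave no value, since each member has 1 accession. The glial counts of Slc17a6, Slc17a7, Slc18a3 and Slc17a9, all 48 or fewer per library, limit their folds.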
